A study of Homo sapiens with 12 samples.

Results

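The 9 genes described here encode the mitochondrial route of long-chain fatty acid oxidation: CPT1A, CPT2, SLC25A20, ACADM, ACADVL, HADHA, HADHB, ACAA2 and ETFDH. They were taken by gene symbol from the platform annotation, with every probe set that carries 1 of these symbols, which gave 17 of the 22277 probe sets of the array and 9 of the 11963 genes it names. The study transfected LNCaP, an established human prostate cancer cell line whose labels give an early tumour stage, with a microRNA and measured total RNA on expression arrays. There were 4 groups of 3 arrays each, namely cells given miR-130a, miR-203 or miR-205, and cells given a scramble microRNA, and the arrays of a group are labelled as biological replicates. All 4 groups carry the same cell line and the handling of a transfection, so the scramble cells are the control for the transfected sequence and not for untreated cells. The dose, the time after transfection and the microRNA level in the cells are not stated in the labels. The label of the cells was compared with marker genes. Of 10 luminal prostate markers, 7 were on the array and all 7 lay above the array median, while 3 basal, 5 of 6 stromal or muscle and 5 leukocyte or endothelial markers never did on any of the 12 arrays. The sixth stromal marker, the collagen gene COL1A1, was above the median on all 12 arrays, though never higher than 3.46.

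Fatty acids enter the mitochondrion as carnitine esters: CPT1A on the outer membrane makes the ester, the carrier SLC25A20 moves it inward, and CPT2 on the inner membrane restores the acyl-CoA. Acyl-CoA dehydrogenases then start each round of oxidation, the trifunctional protein made of HADHA and HADHB and the thiolase ACAA2 complete it, and ETFDH passes the electrons to ubiquinone. The step at CPT1A is held back by malonyl-CoA, and prostate cancer cells are known for burning fatty acids as a fuel.

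A microRNA recognises messenger RNAs mainly through its seed, bases 2 to 8 from the 5′ end. The mature forms listed by RefSeq for miR-203 and miR-205 (GRCh38.p14) are shown with the seed in capitals, since these microRNAs were among the treatments. The labels give no arm, so the listed arm is the one RefSeq names here and not one stated by the study. The miR-203 sequence lies at chr14:104117469-104117490 and the miR-205 sequence at chr1:209432166-209432187, both on the plus strand. The listed seeds are different from each other. miR-130a is named only.
hsa-miR-203a-3p: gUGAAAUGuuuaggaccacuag
hsa-miR-205-5p: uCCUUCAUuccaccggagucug

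All values below are log2 array levels, in which a difference of 1 is a doubling of the linear value. A gene was read on the probe set whose mean over the 12 arrays was highest, and 6821 genes lay above their array's median on at least 3 arrays and were tested, all 9 oxidation genes among them. A gene is called past the threshold where its adjusted p in the limma fit of all 6821 genes was under 0.05. The 9 genes were chosen by pathway with the measured group differences of these arrays already known, the CPT1A difference with miR-203 included, so their calls place them among all genes and are not independent evidence, and no p-value is given for them. The 3 comparisons with scramble share the same 3 scramble arrays. In 3 arrays against 3 there are 10 splits, so an exact two-sided permutation test of 1 gene could not go below 0.1. The array medians lay between 2.76 and 2.78, and arrays of 1 group correlated at 0.992 to 0.997, against 0.964 to 0.986 between groups.

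CPT1A, the entry enzyme of the pathway, had the widest differences of the 9 genes. On its bright probe set, 203633_at, it read 7.13, 7.15 and 7.24 in miR-130a cells, 5.63, 5.86 and 5.61 in miR-203 cells, 7.34, 7.31 and 7.31 in miR-205 cells, and 7.62, 7.74 and 7.67 in scramble cells. No 2 groups overlapped, with scramble highest, then miR-205, miR-130a and miR-203. The group means were 7.17 ± 0.057 with miR-130a, 5.70 ± 0.138 with miR-203, 7.32 ± 0.017 with miR-205 and 7.68 ± 0.062 with scramble (SD, n = 3 each). Against scramble CPT1A fell with miR-203 by 1.98 ± 0.08 log2 (SE), to 0.254 of the scramble level on the linear scale, rank 3 from the bottom among the 6821 genes. It fell with miR-130a by 0.50 ± 0.08 and with miR-205 by 0.36 ± 0.08, and all 3 differences were past the threshold. In these bulk extracts, fewer cells with the transcript and less transcript per cell cannot be told apart.

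The other CPT1A probe sets gave no second reading of that pattern. Probe sets 203634_s_at and 210687_at were above the array median on 0 of 12 arrays, so they give only that CPT1A was not detected there. Probe set 210688_s_at was above it on all 12 arrays but by 0.174 log2 on average. It read 3.12, 2.82 and 2.95 in miR-130a cells, 3.03, 2.82 and 2.78 in miR-203 cells, 3.05, 3.16 and 2.82 in miR-205 cells, and 2.78, 2.92 and 3.05 in scramble cells. These groups overlapped, and its differences from scramble of 0.05, -0.04 and 0.09 with miR-130a, miR-203 and miR-205 were not past the threshold. The CPT1A result therefore rests on 203633_at. With the mean of all 4 probe sets the miR-203 difference became -0.53 and stayed past the threshold, while those with miR-130a (-0.16) and miR-205 (-0.08) did not, since 3 of the 4 probe sets lie at the low end of the scale.

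**Figure D1:**
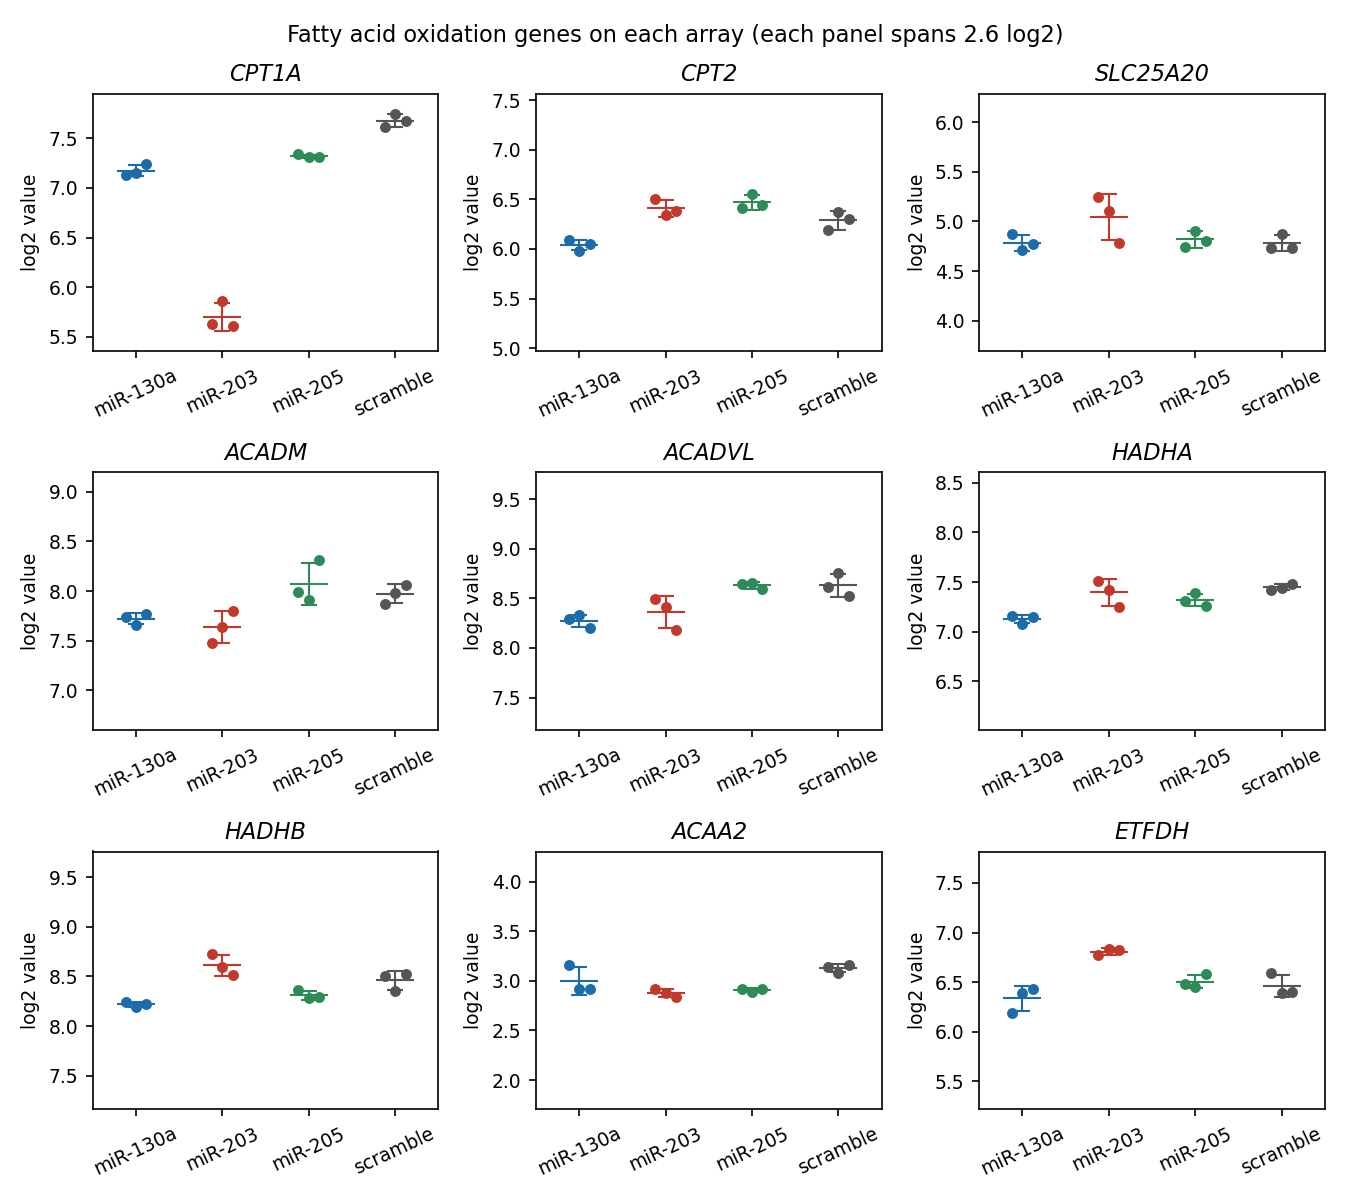
Log2 level of each of the 9 genes on every array, 1 panel per gene, with points for arrays and bars for the group mean ± SD (n = 3), and groups from left to right miR-130a, miR-203, miR-205 and scramble. Every panel spans the same log2 range, and CPT1A in miR-203 cells, at 5.61 to 5.86, lies farther from scramble than any other group in any panel.

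SLC25A20, the carnitine-acylcarnitine carrier of the inner membrane, was the only one of the 9 genes not past the threshold in the test of any difference among the groups. It read 4.88, 4.71 and 4.77 in miR-130a cells, 5.25, 5.11 and 4.79 in miR-203 cells, 4.74, 4.90 and 4.81 in miR-205 cells, and 4.73, 4.87 and 4.74 in scramble cells. Each group overlapped its neighbour in the order of means. The difference between miR-203 and scramble was 0.27 ± 0.11, and the spread in miR-203 cells (SD 0.236) exceeded that of the other groups (0.080 to 0.084). Without replicate 3 of miR-203, the lowest array of its group, the difference was 0.40 and past the threshold, as were those of SLC25A20 from miR-130a and from miR-205.

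CPT2, which regenerates the acyl-CoA inside the mitochondrion, differed from CPT1A in order. Its brighter probe set, 204263_s_at, read 6.09, 5.98 and 6.05 in miR-130a cells, 6.50, 6.34 and 6.39 in miR-203 cells, 6.42, 6.55 and 6.44 in miR-205 cells, and 6.19, 6.38 and 6.30 in scramble cells. The miR-130a arrays lay below all others, and the differences from scramble were -0.25 ± 0.08 with miR-130a, past the threshold, and 0.12 ± 0.08 with miR-203 and 0.18 ± 0.08 with miR-205, which were not. Probe set 204264_at read 5.74, 5.98 and 5.70 in miR-130a cells, 6.38, 6.46 and 6.38 in miR-203 cells, 6.50, 6.53 and 6.45 in miR-205 cells, and 6.14, 5.94 and 6.22 in scramble cells. The miR-130a call on 204263_s_at ended without miR-130a replicate 2 (-0.22) or 3 (-0.25) or scramble replicate 2 (-0.20) or 3 (-0.24). The order of the groups was the same on both probe sets in that miR-130a was lowest and miR-205 highest. In the fit of all probe sets, 204264_at was past the threshold in each comparison, at -0.29 with miR-130a, 0.31 with miR-203 and 0.39 with miR-205 (each ± 0.09). Of all probe sets in that fit, 21.3% were called with miR-130a, 33.9% with miR-203 and 24.1% with miR-205. The probe sets thus shared their directions, and whether CPT2 was called higher with miR-203 and miR-205 depended on which was read.

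ACADVL, the very-long-chain acyl-CoA dehydrogenase of the inner membrane, was lower with miR-130a and miR-203, while its level with miR-205 was close to scramble. It read 8.29, 8.33 and 8.21 in miR-130a cells, 8.49, 8.41 and 8.19 in miR-203 cells, 8.65, 8.66 and 8.59 in miR-205 cells, and 8.61, 8.75 and 8.52 in scramble cells. The miR-130a and miR-203 arrays lay below every miR-205 and scramble array. ACADVL fell by 0.36 ± 0.09 with miR-130a and by 0.27 ± 0.09 with miR-203, both past the threshold, and the miR-205 mean of 8.63 ± 0.036 equalled the scramble mean of 8.63 ± 0.114 (SD, n = 3 each) to 2 decimals.

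ACADM, the medium-chain acyl-CoA dehydrogenase of the matrix, fell into the same pairs of groups. It read 7.73, 7.66 and 7.77 in miR-130a cells, 7.48, 7.64 and 7.80 in miR-203 cells, 7.99, 7.91 and 8.31 in miR-205 cells, and 7.87, 7.98 and 8.06 in scramble cells. All miR-130a and miR-203 arrays lay below all miR-205 and scramble arrays. The difference from scramble was -0.33 ± 0.11 with miR-203, past the threshold, -0.25 ± 0.11 with miR-130a, not past it, and 0.10 ± 0.11 with miR-205, not past it. The miR-203 calls of both dehydrogenases depended on single arrays. The ACADM call ended without miR-203 replicate 1 (-0.25) or 2 (-0.33) or scramble replicate 2 (-0.33) or 3 (-0.29). The ACADVL call ended without miR-203 replicate 3 (-0.18) or scramble replicate 1 (-0.27) or 2 (-0.21).

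HADHA and HADHB, the alpha and beta subunits of the trifunctional protein, were both lower with miR-130a. HADHA read 7.15, 7.08 and 7.15 in miR-130a cells, 7.51, 7.42 and 7.25 in miR-203 cells, 7.31, 7.39 and 7.26 in miR-205 cells, and 7.42, 7.44 and 7.48 in scramble cells. HADHB read 8.24, 8.20 and 8.23 in miR-130a cells, 8.73, 8.60 and 8.52 in miR-203 cells, 8.36, 8.28 and 8.29 in miR-205 cells, and 8.50, 8.35 and 8.53 in scramble cells. For both genes the 3 miR-130a arrays lay below the other 9, and the remaining groups overlapped their neighbours in the order of means.

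Against scramble, HADHA fell by 0.32 ± 0.08 and HADHB by 0.24 ± 0.07 with miR-130a, both past the threshold. With miR-203 the differences were -0.05 ± 0.08 for HADHA and 0.15 ± 0.07 for HADHB, and with miR-205 they were -0.13 ± 0.08 and -0.15 ± 0.07, none of them past the threshold. The other HADHA probe sets did not reach the miR-130a call: 208629_s_at differed by -0.10 and 208630_at by -0.14, with miR-130a values of 6.56 to 6.65 and 6.33 to 6.53 against scramble values of 6.61 to 6.80 and 6.46 to 6.69. The HADHA call with miR-130a therefore rested on 208631_s_at. The HADHB call with miR-130a ended when any single miR-130a array was left out (-0.25, -0.22 and -0.24 without replicates 1, 2 and 3), and without scramble replicate 1 (-0.22) or 3 (-0.20).

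HADHA and HADHB lie head to head on chromosome 2, and the 306 bases between their annotated starts lie upstream of both genes. The 194 bases common to both upstream windows (chr2:26244689-26244882, plus strand, RefSeq, GRCh38.p14) are shown because these subunits of 1 enzyme were both lower with miR-130a.
HADHA-HADHB upstream region: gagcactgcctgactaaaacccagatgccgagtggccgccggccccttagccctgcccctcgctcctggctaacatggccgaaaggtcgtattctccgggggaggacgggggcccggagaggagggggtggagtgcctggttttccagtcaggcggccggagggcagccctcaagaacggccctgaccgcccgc
Motifs were searched on both strands of 300-base windows, 250 bases before and 50 after each start. AGGTCA repeated with 1 base between the copies, the direct repeat read by PPAR-RXR dimers, was in 0.0228% of the 35116 windows of the table, and TCAAGGTCA, read by estrogen-related receptors and holding the shorter AGGTCA, in 0.353%. AGGTCA alone was in 13.8% and CACGTG in 7.26%. Windows were found for 8 of the 9 genes, 9 windows in all, and 0 of these held any of the 4 motifs, which says only that these letters are not in these windows.

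ACAA2, the thiolase that releases acetyl-CoA, was close to the detection limit. Its brighter probe set, 202003_s_at, lay 0.21 above the array median on average and read 3.16, 2.92 and 2.92 in miR-130a cells, 2.92, 2.88 and 2.84 in miR-203 cells, 2.92, 2.88 and 2.92 in miR-205 cells, and 3.14, 3.08 and 3.16 in scramble cells. The miR-203 and miR-205 arrays lay below all scramble arrays and the miR-130a arrays did not. The differences of -0.25 ± 0.08 with miR-203 and -0.22 ± 0.08 with miR-205 were past the threshold and that of -0.13 ± 0.08 with miR-130a was not. Equal values within groups narrow its measured spread, and probe set 202002_at, at 2.63 to 2.94, was too dim to be tested, so ACAA2 has no second reading. The miR-203 call ended with the mean of both probe sets (-0.06), without miR-203 replicate 3 (-0.23) and without scramble replicate 3 (-0.23). The miR-205 call ended under 12 of 21 other settings, among them the mean of both probe sets and each miR-205 or scramble array left out (-0.25 to -0.20).

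ETFDH, which hands the electrons of the pathway to ubiquinone, was the only one of the 9 genes past the threshold upward against scramble. Probe set 33494_at read 6.19, 6.39 and 6.43 in miR-130a cells, 6.77, 6.83 and 6.82 in miR-203 cells, 6.48, 6.46 and 6.58 in miR-205 cells, and 6.59, 6.39 and 6.40 in scramble cells. The miR-203 arrays lay above the other 9. Scramble overlapped both remaining groups, and the miR-130a arrays lay below the miR-205 arrays. The difference with miR-203 was 0.35 ± 0.08, past the threshold, against -0.12 ± 0.08 with miR-130a and 0.04 ± 0.08 with miR-205, which were not.

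The second ETFDH probe set, 205530_at, gave the same call. It read 5.61, 5.63 and 5.71 in miR-130a cells, 5.98, 5.99 and 6.17 in miR-203 cells, 5.46, 5.90 and 5.84 in miR-205 cells, and 5.64, 5.71 and 5.42 in scramble cells. The miR-203 arrays were again above all others, by 0.46 ± 0.12 over scramble, past the threshold among all probe sets. ETFDH with miR-203 and CPT2 with miR-130a are the differences from scramble that were past the threshold on more than 1 probe set.

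**Figure D2:**
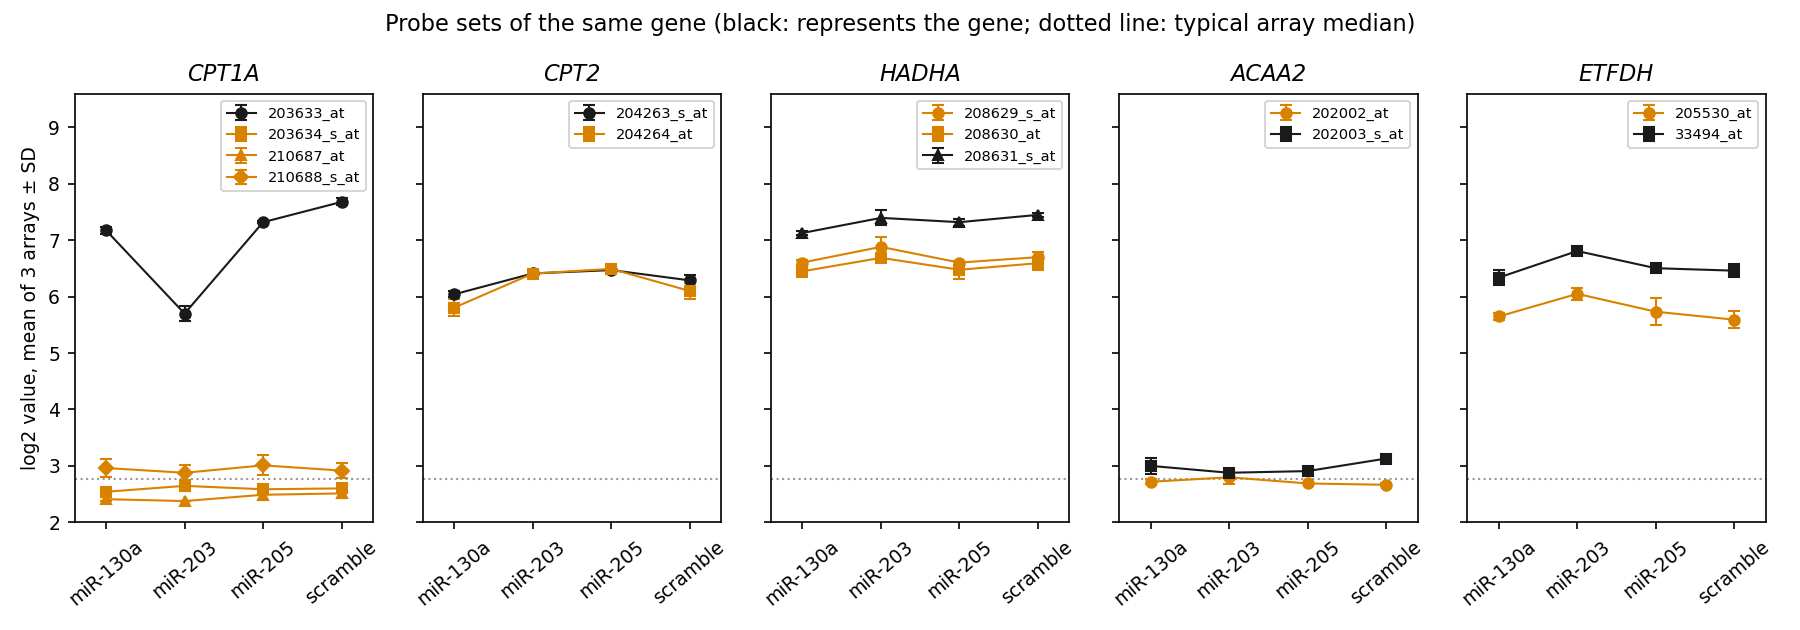
Log2 level of every probe set of CPT1A, CPT2, HADHA, ACAA2 and ETFDH as group mean ± SD (n = 3), with the array median as a dotted line. CPT2 has miR-205 highest and miR-130a lowest on both probe sets, ETFDH has miR-203 highest on both, 1 CPT1A probe set stands clear of the median, and both ACAA2 probe sets lie near it.

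Counted over the 9 genes, miR-130a gave 5 lower, 0 higher and 4 not past the threshold. Over all 6821 genes 23.6% were called in that comparison, 11.6% lower and 12% higher. The lower genes were CPT1A, CPT2, ACADVL, HADHA and HADHB, and 6 of the 9 genes had no overlap between the miR-130a and scramble arrays, all with miR-130a below, where 39.2% of all genes did not overlap and 19.9% did so with miR-130a below. At an unadjusted p under 0.05 the counts were 6 lower and 0 higher, where 18% of all genes were lower and 17.4% higher. The median difference of the 9 genes was -0.25 log2, beside -0.01 over all genes tested.

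With miR-203, 4 of the 9 genes were lower (CPT1A, ACADM, ACADVL and ACAA2), 1 was higher (ETFDH) and 4 were not past the threshold. In that comparison 36.2% of all genes were called, 18.9% lower and 17.3% higher. In 5 of the 9 genes the groups did not overlap, against 44.3% of all genes, and the median difference was -0.05 log2, beside 0.01 over all genes.

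With miR-205, 2 of the 9 genes were lower (CPT1A and ACAA2), 0 were higher and 7 were not past the threshold, where 26.1% of all genes were called, 14.8% lower and 11.3% higher. The miR-205 and scramble arrays did not overlap for 4 genes, 1 above and 3 below, against 39% of all genes, 18% above and 21% below. At an unadjusted p under 0.05 the counts were 2 lower and 1 higher, where 20.3% of all genes were lower and 16.7% higher. The share called is near that of all genes. In the test of any difference among the 4 groups, 8 of the 9 genes were past the threshold, against 60.8% of all genes.

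**Figure D3:**
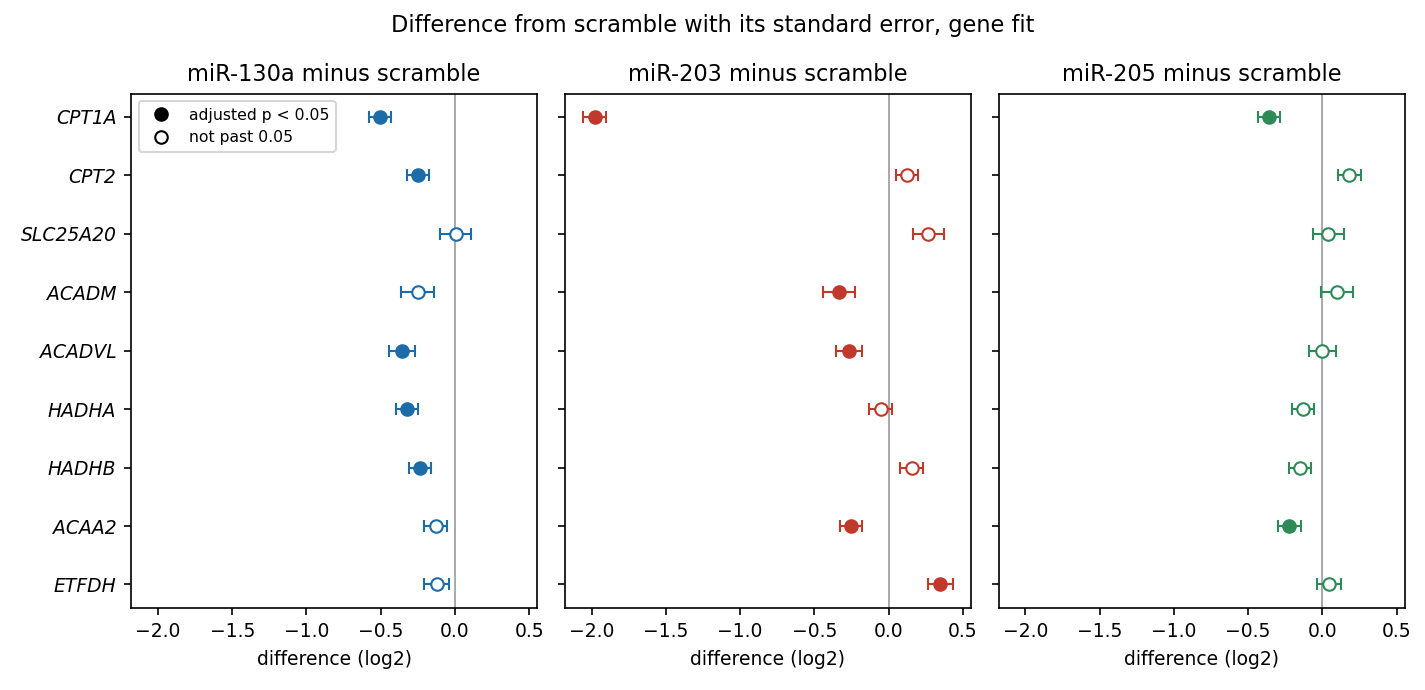
Difference from scramble ± SE on the log2 scale for each of the 9 genes with miR-130a, miR-203 and miR-205, filled where past the threshold among all genes tested. CPT1A with miR-203, at -1.98, lies beyond all other differences, which run from -0.50 to 0.35.

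The microRNAs were also set against each other, without pairing of arrays. Differences were taken between the microRNAs' own arrays, and the spread was estimated from all 12 arrays. With miR-130a over miR-203, CPT1A was higher by 1.48 log2, 2.78 times on the linear scale, and CPT2 (-0.37), HADHA (-0.27), HADHB (-0.39) and ETFDH (-0.47) were lower, so 5 of 9 were past the threshold, where 41.2% of all genes were, 21.1% higher and 20.1% lower. In 5 genes the arrays of these groups were fully apart, which held for 52.9% of all genes. With miR-130a over miR-205, CPT2 (-0.43), ACADM (-0.35) and ACADVL (-0.36) were lower and 0 genes were higher, where 33.6% of all genes were called, 15.4% lower and 18.2% higher. At an unadjusted p under 0.05 the counts were 4 lower and 0 higher, where 20.5% of all genes were lower and 22.4% higher. For 7 genes the groups did not overlap, all with miR-130a below, against 49.7% of all genes in either direction and 24.1% with miR-130a below. With miR-203 over miR-205, CPT1A (-1.62), ACADM (-0.43) and ACADVL (-0.27) were lower and HADHB (0.30) and ETFDH (0.30) higher, where 37.9% of all genes were called, 16.9% lower and 21% higher. Here too 5 genes had groups fully apart, against 47.2% of all genes. The ACADVL call in that last comparison ended without miR-203 replicate 3 (-0.18) or miR-205 replicate 1 (-0.26) or 2 (-0.25). It also ended, at -0.27, in the 6 miR-203 and miR-205 arrays alone, both with no block and with the replicate number as a block. The HADHA call between miR-130a and miR-203 ended without miR-130a replicate 2 (-0.24) or miR-203 replicate 1 (-0.21), and the ACADM call between miR-130a and miR-205 without miR-130a replicate 1 (-0.36) or 2 (-0.32) or miR-205 replicate 3 (-0.23).

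Genes whose levels ran most like each of the 9 were taken by Pearson correlation over the 12 arrays, which share 4 treatments, so the values describe group patterns. CPT1A was followed most closely by SLC7A1 (r = 0.987), CHCHD3 (0.987) and SEC61B (0.983). SLC7A1, a cationic amino acid transporter, averaged 7.38 ± 0.095 with miR-130a, 5.98 ± 0.272 with miR-203, 7.53 ± 0.136 with miR-205 and 7.87 ± 0.079 with scramble (SD, n = 3 each), the same order of groups as CPT1A. HADHA was nearest to PMVK (0.968), HADHB to SERINC3 (0.961) and ETFDH to REPIN1 (0.973). CPT2 was nearest to C1GALT1C1 (0.940), ACADVL to CCDC92 (0.955), ACADM to RMND1 (0.951), SLC25A20 to PHKG2 (0.925) and ACAA2 to SRI (0.930). The genes named here as nearest include none of the other 8 oxidation genes.

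Beyond the 9 genes, 13 further enzymes of the matrix pathway and its electron transfer were listed, of which 12 were on the array and 11 were tested. This list and those that follow were also chosen with earlier results of these data known, and their named genes were picked by size. Their adjusted p values place these genes among all genes tested and are not independent evidence. With miR-130a 5 of the 11 fell and 0 rose in the limma fit (0 also at an unadjusted p under 0.05), with a median difference of -0.17. In that comparison 11.6% of all genes were called lower and 12% higher. The 4 largest were ACAT1, the mitochondrial acetoacetyl-CoA thiolase (-0.31 ± 0.07, limma adjusted p = 0.00442), ECI1, an enoyl-CoA isomerase (-0.30 ± 0.08, adjusted p = 0.0132), HSD17B10, a hydroxyacyl-CoA dehydrogenase (-0.29 ± 0.09, adjusted p = 0.0357), and ACADSB, the short/branched-chain dehydrogenase (-0.27 ± 0.09, adjusted p = 0.0409). The lower count ran from 1 to 5 over 21 other settings, with 1 left without miR-130a replicate 1 or 3, while ACAT1 stayed past the threshold in all 21.

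With miR-203, 2 of these 11 enzymes rose and 1 fell, with a median of 0.08. Among all genes 17.3% were called higher and 18.9% lower with miR-203, and 11.3% higher and 14.8% lower with miR-205. ECI2, another enoyl-CoA isomerase, fell by 0.44 ± 0.06 (limma adjusted p = 0.000185), ACADSB rose by 0.39 ± 0.09 (adjusted p = 0.00375), and HADH, the matrix hydroxyacyl-CoA dehydrogenase, rose by 0.28 ± 0.10 (adjusted p = 0.0407, above the threshold in 7 of 21 other settings). With miR-205, 1 rose and 1 fell, with a median of 0.05: ACADSB rose by 0.39 ± 0.09 (adjusted p = 0.00469) and ECHS1, the short-chain enoyl-CoA hydratase, fell by 0.39 ± 0.07 (adjusted p = 0.00115).

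Of 11 genes of fatty acid activation and carnitine handling, 8 were on the array and 5 were tested, and 1 of them moved, upward with each microRNA. This was MLYCD, malonyl-CoA decarboxylase, which breaks down the inhibitor of CPT1A. Among all genes 12% were called higher with miR-130a, 17.3% with miR-203 and 11.3% with miR-205. MLYCD read 4.26, 4.31 and 4.29 in miR-130a cells, 4.79, 4.87 and 4.77 in miR-203 cells, 4.33, 4.63 and 4.55 in miR-205 cells, and 4.14, 3.91 and 4.01 in scramble cells. All 9 arrays of cells given miR-130a, miR-203 or miR-205 lay above the scramble arrays, and the miR-203 arrays lay above all others. The rise was 0.79 ± 0.09 with miR-203 (limma adjusted p = 1.81e-05), 0.48 ± 0.09 with miR-205 (adjusted p = 0.00128) and 0.26 ± 0.09 with miR-130a (adjusted p = 0.0416, above the threshold in 11 of 21 other settings, with p up to 0.139). Of the 4 groups, miR-203 cells had the highest MLYCD and the lowest CPT1A level.

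Regulators of the pathway were listed as 22 genes, of which 20 were on the array and 14 were tested. PPARA, PPARG and PPARGC1A, nuclear receptors and a coactivator that drive oxidation genes, did not pass the brightness filter and have no reading here. Among all genes 11.6% were called lower and 12% higher with miR-130a, 18.9% and 17.3% with miR-203, and 14.8% and 11.3% with miR-205. With miR-130a 4 of the 14 fell and 0 rose (1 at an unadjusted p under 0.05; median -0.18): RXRA by 0.32, SIRT5 by 0.31, RXRB by 0.28 and FOXO1 by 0.28, with limma adjusted p of 0.0251, 0.0301, 0.041 and 0.0452. With miR-203, 2 rose, TFAM by 0.39 (adjusted p = 0.011) and PRKAA1 by 0.32 (adjusted p = 0.0347), and 1 fell, SIRT5 by 0.32 (adjusted p = 0.0177). With miR-205, 0 of the 14 passed the limma test, and 4 were lower at an unadjusted p under 0.05. Of 7 further genes known to be induced by PPAR receptors, 6 were on the array and 1 was bright enough to be tested, and it was past the threshold in 0 of the 3 comparisons (limma; 1 at an unadjusted p under 0.05, with miR-203). The regulator counts depended on single arrays and on the probe set read, and with miR-130a the lower count ran from 0 to 5 over the 21 other settings. It was 0 with the probe set of largest variance and 1 with the mean of all probe sets. With miR-130a the calls ended in 7 (RXRA), 12 (RXRB) and 8 (SIRT5) of 21 other settings, and in 12 of 20 for FOXO1. With miR-203 they ended in 2 (TFAM), 7 (PRKAA1) and 5 (SIRT5) of 21.

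General mitochondrial genes were read beside the pathway, 21 listed and 19 tested. The shares of all genes called lower and higher were 11.6% and 12% with miR-130a, 18.9% and 17.3% with miR-203, and 14.8% and 11.3% with miR-205. With miR-130a 5 fell and 0 rose (1 at an unadjusted p under 0.05; median -0.10), led by TOMM20, an import receptor (-0.71 ± 0.08, limma adjusted p = 1.87e-05). With miR-203, 6 rose and 4 fell (median -0.05), and the mitochondrial protease LONP1 fell by 0.93 (adjusted p = 2.46e-06). With miR-205, 1 rose and 2 fell (median -0.11), and LONP1 fell by 0.71 (adjusted p = 3.63e-05). The 5 lower genes of 19 with miR-130a stand beside the 5 lower genes of the 9 in the same comparison.

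**Figure D4:**
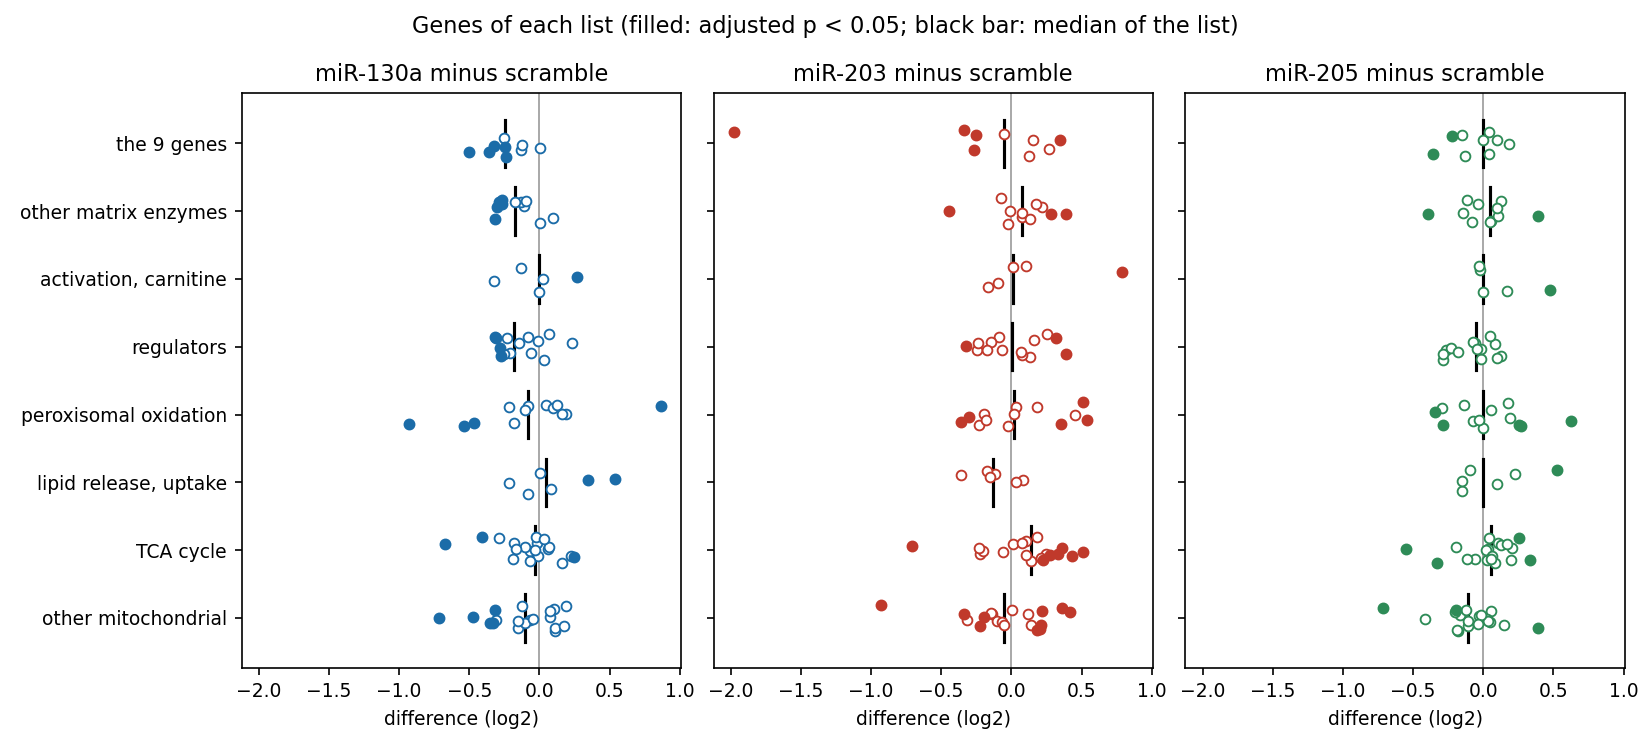
Differences from scramble on the log2 scale for the tested genes of each list drawn in the miR-130a, miR-203 and miR-205 comparisons, with 1 point per gene and the list's median as a black bar. The further PPAR-induced genes, the interferon and mitosis lists and the marker lists are not drawn. The medians lie between -0.25 for the 9 genes with miR-130a and 0.14 for the TCA cycle list with miR-203.

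Other programmes moved in the same cells. The interferon-response list held IFIT1, IFIT3, ISG15, OASL and MX1. Its mean log2 level was 9.05 to 9.26 in miR-130a arrays and 7.57 to 7.79 in miR-203 arrays. It was 4.79 to 4.83 in miR-205 arrays, against 4.51 to 4.59 in scramble arrays. MX1 averaged 2.36 in each group, never lay above the array median and was not tested, so it lowers each of these means. Of the 4 genes tested, 4 were called higher with miR-130a, 4 with miR-203 and 1 with miR-205. The list mean therefore does not describe a rise shared by all its genes. The mean of the mitosis list (MKI67, TOP2A, CDK1, CDC20 and TPX2) was 6.95 to 7.01 with miR-130a, 5.54 to 5.97 with miR-203 and 5.03 to 5.47 with miR-205, against 6.46 to 6.68 with scramble. The luminal markers averaged 8.28 to 8.32 with miR-130a, 7.63 to 7.75 with miR-203 and 8.39 to 8.49 with miR-205, against 8.23 to 8.38 with scramble. Of the 7 luminal markers tested, 1 was called lower with miR-130a, 4 with miR-203 and 1 with miR-205. Those called higher were 0, 0 and 2 in the same order, so the mean merges directions with miR-205. Of all genes, 11.6%, 18.9% and 14.8% were called lower and 12%, 17.3% and 11.3% higher. The 3'-minus-5' difference of the GAPDH control probe sets, a sign of RNA quality, was 0.72 to 0.74 with miR-130a, 0.74 to 0.80 with miR-203 and 0.60 to 0.73 with miR-205, against 0.56 to 0.90 with scramble. That of the ACTB probe sets was 2.18 to 2.34 with miR-130a, 2.18 to 2.54 with miR-203 and 2.21 to 2.46 with miR-205, against 2.30 to 2.66 with scramble. The part of these in the differences of the oxidation genes was not tested.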

How the data were processed

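Total RNA of 12 LNCaP cultures was measured on arrays, 3 per group. The deposited values are on the log2 scale, and the submitters' processing notes name R 2.9.0, RMA and limma with no role for each; the background method is not given in the sources used here. Values ran from 2.36 to 13.95, and 29.6% to 31.6% of an array's probe sets sat at its lowest value. Of 22277 probe sets, 19070 carry 1 symbol in the platform annotation, 1043 several and 2164 none, and 19058 matched the RefSeq gene table. Each gene was read on its probe set with the highest mean.

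Genes above the array median on at least 3 arrays were fitted with limma 3.58.1 in R 4.3.3 (group means over all 12 arrays, eBayes with 8 residual and 4.84 prior degrees of freedom, two-sided, Benjamini-Hochberg over 6821 genes, threshold 0.05). Of these, 1425 (20.9%) have arrays of 1 group with exactly the same value, which narrows their spread. The same fit over single probe sets gave their agreement. The number of arrays limits the precision. The fit was tested on simulated data.

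The 9 genes and all lists were chosen with earlier results of these data known. All 9 genes are named; from each other list up to 4 called genes per comparison with scramble by size, and for likeness the 3 genes of highest r per gene. The lists are described by counts and medians, with no set test. Alternatives covered the filter, the probe set that stands for a gene, the scaling, array weights, the replicate number as a block and each array left out. Deviations from the group means correlated between same-numbered miR-203 and miR-205 arrays (r = 0.171, 0.105 and 0.313 for replicates 1, 2 and 3). All 3 lay above 0.1, and the numbers were taken to pair these groups, from the data and not from the labels. That cut does not separate pairs by itself, since arrays of different groups and different numbers correlated at -0.284 to 0.163. Between miR-203 and miR-205 arrays alone, different numbers gave -0.284 to 0.0963. No other groups had a same-number pair above 0.1, though those of miR-130a with miR-203 and miR-205 were all positive.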

Additional observations from a re-analysis of the deposited data

How the results depend on the processing

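Of 1134 values of the 9 genes under 21 other settings, 1065 stayed on the same side of the threshold, 48 were no longer past it, 21 came past it, and 0 changed sign with a call before or after. Against scramble, the count called with miR-130a (5) ran from 3 to 5 when 1 array was left out, with 3 without miR-130a replicate 2 or 3 or scramble replicate 3. The count with miR-203 (5) was 3 with no brightness filter and ran from 3 to 5 with 1 array left out, with 3 without scramble replicate 2 or 3. The count with miR-205 (2) was 1 with no filter, 1 with the mean of all probe sets, and ran from 1 to 2 with 1 array left out. With the mean of all probe sets neither reported miR-205 call held (CPT1A -0.08, ACAA2 -0.10). The 1 call there was CPT2, which was higher (0.29). With the probe set of largest variance the ACAA2 call also ended, and CPT2 came past the threshold upward (0.39). The counts between microRNAs ran from 4 to 6 (miR-130a over miR-203), 2 to 4 (miR-130a over miR-205) and 4 to 5 (miR-203 over miR-205) with 1 array left out, and that of any difference from 7 to 8. CPT1A with miR-203 and ETFDH with miR-203 stayed past the threshold in all 21 settings, as did ACADVL with miR-130a. With the probe set of largest variance in place of the brightest, the MDH2 difference with miR-130a was 0.34 in place of -0.18 and that of HSPA9 with miR-203 was 0.11 in place of -0.22, and the HADHA difference with miR-130a was -0.10 and not past the threshold; the cause was not tested. With the replicate number as a block the counts against scramble were 5, 5 and 2, as without it, and 3 rather than 5 matrix enzymes fell with miR-130a. Of 18 same-number pairs, 3 correlated above 0.1 (range -0.112 to 0.313), all between miR-203 and miR-205, and 9 of 12 arrays correlated best with their own number. Pairs of different numbers ran from -0.284 to 0.163. Same-number pairs of miR-130a arrays correlated at 0.094, 0.0467 and 0.0965 with miR-203 and at 0.0648, 0.0755 and 0.0285 with miR-205. These were positive but under 0.1, so whether miR-130a arrays are paired with them cannot be settled from these values. Same-number pairs with scramble ran from -0.112 to 0.0404. The main fit of every comparison, miR-203 over miR-205 included, was made without pairing. With the block in all 12 arrays, all 54 results of the 9 genes stayed on the same side of the threshold. With the block over the 6 miR-203 and miR-205 arrays alone, an alternative chosen after seeing the data, 4 of the 9 genes were called, against 5 as reported and 4 with those 6 arrays and no block. Lower counts with miR-130a ran from 2 to 5 for the TCA cycle list, and higher counts with miR-203 from 1 to 4 for the matrix, 0 to 3 for the regulator, 4 to 8 for the TCA cycle and 2 to 6 for the mitochondrial list. With miR-205 higher counts ran from 1 to 4 for the peroxisomal and 0 to 4 for the TCA cycle list, and lower counts from 1 to 6 for the mitochondrial list. Dim probe sets, such as those of ACAA2, limit what low genes can show.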

Other observations

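Of 18 peroxisomal genes, 13 were tested, and with miR-130a 3 fell, 1 rose and 9 were not past the threshold (median difference -0.08, and 23.6% of all genes called). ACAA1, the peroxisomal thiolase, fell by 0.93 ± 0.08 (limma adjusted p = 4.74e-06), PHYH, which starts the oxidation of branched chains, by 0.53 ± 0.08 (adjusted p = 0.000395) and CAT, catalase, by 0.47 ± 0.07 (adjusted p = 0.000316). CROT, which makes carnitine esters of shortened chains for export, rose by 0.87 ± 0.11 with miR-130a (adjusted p = 0.000126), by 0.36 with miR-203 (adjusted p = 0.0257, above the threshold in 6 of 21 other settings) and by 0.63 with miR-205 (adjusted p = 0.00126). PHYH also fell by 0.30 with miR-203 (adjusted p = 0.0109) and by 0.29 with miR-205 (adjusted p = 0.0195, above the threshold in 4 of 21 other settings). With miR-203, 3 of the 13 rose and 2 fell, and with miR-205 likewise 3 rose and 2 fell, where 36.2% and 26.1% of all genes were called. With miR-203 CAT rose by 0.51 (adjusted p = 9.19e-05), a call that ended with the probe set of largest variance (0.30, adjusted p = 0.103).

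Of 22 TCA cycle genes, 19 were tested. The shares of all genes called lower and higher were 11.6% and 12% with miR-130a, 18.9% and 17.3% with miR-203, and 14.8% and 11.3% with miR-205. With miR-130a 2 fell, DLST by 0.67 (limma adjusted p = 0.000136) and IDH3G by 0.41 (adjusted p = 0.00601), and 1 rose. With miR-203, 6 rose and 1 fell, and subunits of 1 enzyme, isocitrate dehydrogenase 3, were on opposite sides: IDH3B fell by 0.71 (adjusted p = 1.82e-05) and IDH3A rose by 0.51 (adjusted p = 0.00184). With miR-205, 2 rose and 2 fell, IDH2 by 0.55 (adjusted p = 0.00111). Of 6 tested genes of lipid release and uptake, MGLL, which splits monoglycerides, rose by 0.54 ± 0.14 with miR-130a (adjusted p = 0.0121). LIPA, the lysosomal acid lipase, rose by 0.34 ± 0.08 with miR-130a (adjusted p = 0.00682) and by 0.52 with miR-205 (adjusted p = 0.000317).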
